A study of Mus musculus with 6 samples.

Results

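The cells described here passed a gate for dermal fibroblasts in mouse back skin and carried little or no RNA of Cxcl5, Il1rl1 and Ptx3, and they are called Cxcl5/Ptx3-low fibroblasts below. They were chosen on unique molecular identifiers (UMIs), the counts of captured transcripts, in cells that had 500 UMIs or more, 300 detected genes or more and no more than 10% of UMIs from mitochondrial genes. A cell qualified if Col1a1, Col1a2, Col3a1, Dcn and Sparc together had at least 5 UMIs and more UMIs than Krt5 and Krt14 together. Cxcl5, Il1rl1 and Ptx3 together had to stay under 3 UMIs, and the 3 collagen transcripts under 2% of the cell's UMIs. Pecam1 and Cdh5, the endothelial genes of the rule, had to stay under 2 UMIs, and so did the sum of the pericyte genes Rgs5, Notch3, Kcnj8, Abcc9 and Myh11. This rule found 2463 cells among 34834. Because the rule read these 17 genes in these libraries, their levels are given as a description and were not tested.

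The skin came from male wild-type C57BL/6 mice of 8, 26 or 52 weeks, and its dissociated cells were sequenced as droplet-based single-cell RNA libraries. Every age gave 1 library of untreated skin and 1 of skin that received PBMC-sec ex vivo, which is the secretome of irradiated blood mononuclear cells, and each of the 6 libraries pooled 3 animals. Untreated skin was dissociated directly, so the effect of PBMC-sec and that of the time outside the body cannot be told apart. The labels give no dose and no duration, and they do not say whether libraries of an age shared animals.

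Dermal fibroblasts build and remodel the collagen-rich matrix of the skin, and they also act as sentinels that secrete chemokines and acute phase proteins when tissue is disturbed. Dcn (decorin) and Lum (lumican) encode small leucine-rich proteoglycans that bind collagen fibrils, and Sparc encodes a collagen-binding matrix protein. Saa3 encodes an acute phase serum amyloid A that fibroblasts make in response to inflammatory cytokines. Cxcl5 is a neutrophil-attracting chemokine, Ptx3 a soluble pattern recognition protein and Il1rl1 the receptor of interleukin-33.

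The untreated libraries held 354, 579 and 419 Cxcl5/Ptx3-low fibroblasts at 8, 26 and 52 weeks, and the treated libraries held 300, 541 and 270. Of all cells kept they were 3.83%, 10.4% and 11.4% in untreated skin and 5.5%, 9.13% and 5.46% in treated skin. The remaining cells that passed the fibroblast gate were 2768 fibroblasts with 3 or more UMIs of Cxcl5, Il1rl1 and Ptx3, called Cxcl5/Ptx3-high below, and 122 collagen-high fibroblasts. Among these 3 fibroblast classes the Cxcl5/Ptx3-low share at 8 weeks was 55.0% (exact binomial 95% interval 51.0 to 58.9%) untreated and 33.6% (30.5 to 36.8%) treated. At 26 weeks it was 49.0% (46.1 to 51.9%) and 56.6% (53.4 to 59.8%), and at 52 weeks 49.3% (45.9 to 52.7%) and 32.6% (29.4 to 35.9%). The share was therefore lower in the treated library at 8 and 52 weeks and higher at 26 weeks. The intervals cover counting error only, and no test of the share was made.

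Depth stands beside these shares, since the limit of 3 UMIs is harder to stay under in a deep cell. Median UMIs per Cxcl5/Ptx3-low cell were 1905, 1726 and 3014 in untreated and 2343, 2848 and 4321 in treated libraries, whereas Cxcl5/Ptx3-high cells had medians from 3180 to 8107. When cells were thinned to 1000 UMIs before the rule was applied, the shares were 65.6%, 60.9% and 56.4% untreated and 43.6%, 71.8% and 43.2% treated, with the same order within each age. Thinning left out 86, 106 and 62 member cells of the untreated and 30, 41 and 9 of the treated libraries for lack of depth. Of the members 1876 had no UMI of Cxcl5, Il1rl1 or Ptx3, 418 had 1 and 169 had 2, while 118 cells with 3 and 109 with 4 fell outside. In a shallow cell the lack of such UMIs does not show distance from the limit. At the lower fibroblast limit 153 members had a gate sum of 5 UMIs, and 180 cells with a sum of 4 were outside. Between 1.5 and 2% collagen lay 56 members, and between 2 and 2.5% lay 36 cells outside.

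Some libraries and cells stand apart. In the untreated 8-week library 4532 of 9237 cells fell into groups of near-identical profiles, 46 of them members, and 32 members of the untreated 52-week library did so. Any pair of libraries shared 21 to 78 cell barcodes, and 0 or 1 among the members. An automatic doublet threshold called 0 cells, so a fixed rate marked 8 to 24 members per library as likely doublets, and between 14 and 38 members per library carried 2 or more UMIs of immune genes. Members were kept in all these cases. Of 126 calls followed gene by gene below, 33 were lost when doublets, near-identical barcodes or cells with immune UMIs were left out. For PBMC-sec these were Cck, Manf, Mmp10, Slc7a11, Gsr, Col12a1, Col15a1, Postn, Cxcl3, Csf1, Csf2, Tap1, Psmb9, Hspa1a, Hspa1b and Pdpn, and for age Vcan and Ly6a. For the class differences they were Ccl4, Pdgfrb, H2-Q4, Psmb8, Mmp19, Adamts1, Fn1, Hsph1, Dnajb1, Dnajb4, Il11, Tslp, Areg and Ereg against Cxcl5/Ptx3-high and Crabp1 against collagen-high fibroblasts.

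The label was checked against markers. Levels are counts per 1000000 UMIs (CPM), from UMIs summed over a class in a library. Lum, which the rule did not use, reached 574, 826 and 399 CPM in untreated and 987, 931 and 645 CPM in treated members. In Cxcl5/Ptx3-high fibroblasts of the same libraries it lay between 74.5 and 204 CPM. In all cells outside the members, that class included, it lay between 10.1 and 52.4 CPM, so the ranges did not overlap. The 15 genes of fibroblast identity summed to 7387, 6872 and 10222 CPM in untreated and 7746, 6024 and 7188 CPM in treated members. In Cxcl5/Ptx3-high fibroblasts they summed to 6822, 5539 and 10216 CPM untreated and 7294, 3592 and 5973 CPM treated. In members the sum of 15 keratinocyte markers exceeded the fibroblast identity sum in untreated skin of 8 and 26 weeks (9553 and 8161 CPM). It was lower in the other 4 libraries. In Cxcl5/Ptx3-high fibroblasts the keratinocyte sum lay between 2318 and 4376 CPM. Dcn, a gene of the rule, lay between 4221 and 10351 CPM, Sparc between 2078 and 3568 CPM and Col1a2 between 829 and 1451 CPM. Cxcl5 lay between 20.1 and 60.7 CPM in members, against 3325 to 10216 CPM in Cxcl5/Ptx3-high fibroblasts. All cells outside the members, that class included, had 470 to 1472 CPM of it. The Cxcl5 level in members was thus below that of cells at large in every library, as the rule requires.

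Saa3 did not follow the Cxcl5 axis. It was at 6858, 13909 and 618 CPM in untreated members of 8, 26 and 52 weeks and at 17246, 1401 and 4127 CPM in treated members. Cxcl5/Ptx3-high fibroblasts had 8948, 5680 and 2870 CPM untreated and 6095, 1251 and 7544 CPM treated. Members were therefore above the Cxcl5/Ptx3-high class in 3 of 6 libraries and below it in the others. No other gene among the most abundant ones had so large a ratio between its highest and its lowest library.

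**Figure D1:**
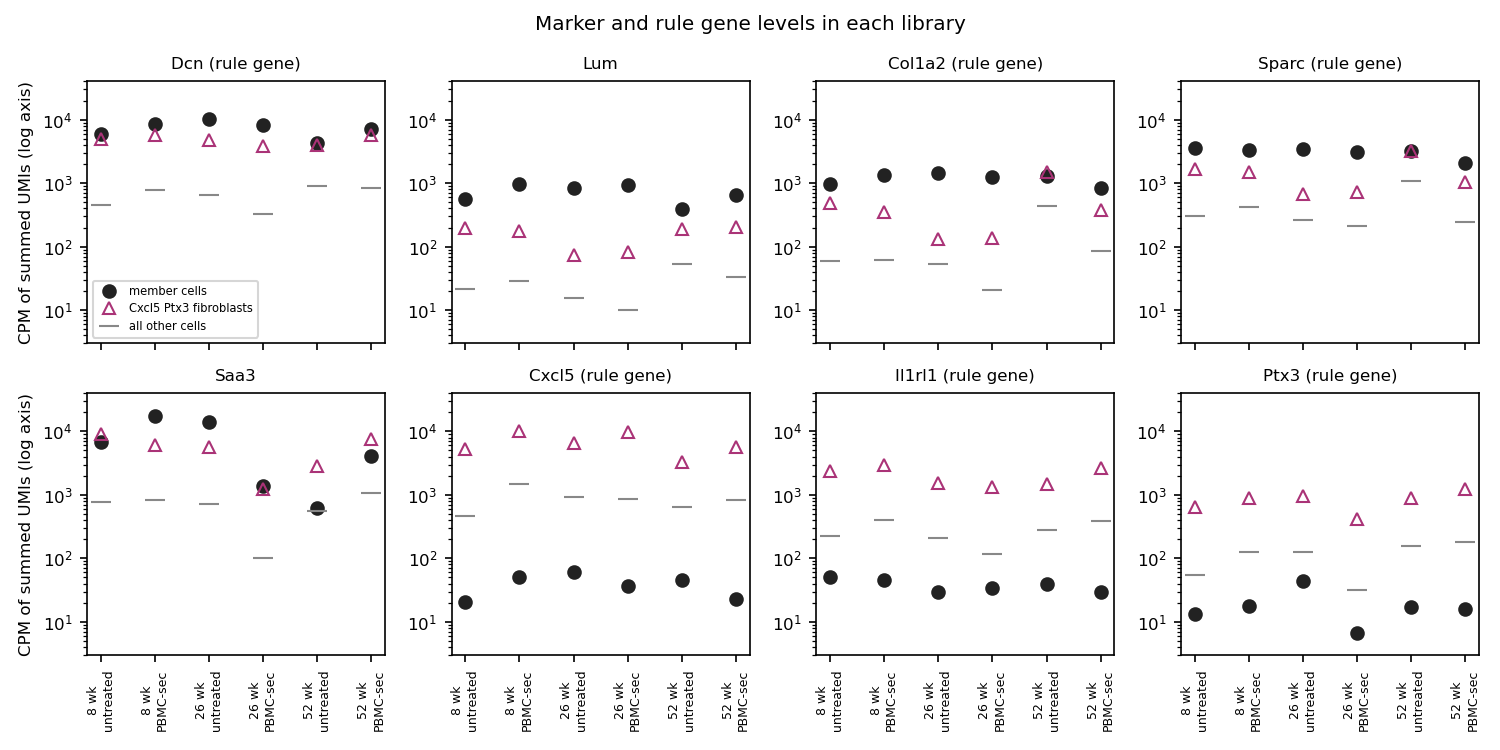
Levels of 8 genes in the 6 libraries (x axis) as CPM of summed UMIs on a log axis. Filled circles are Cxcl5/Ptx3-low member cells and open triangles Cxcl5/Ptx3-high fibroblasts. Lines are all cells outside the members, Cxcl5/Ptx3-high fibroblasts included. Lum was highest in the members of all 6 libraries, Cxcl5, Il1rl1 and Ptx3 were lowest there by construction of the rule, and Saa3 crossed between the classes.

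Apart from mitochondrial and ribosomal protein genes, the most abundant transcripts of the members were Gm42418, a locus that overlaps ribosomal RNA, at 42944 to 77471 CPM, and Fth1, the ferritin heavy chain, at 8059 to 29447 CPM. The nuclear RNA Malat1 followed at 7221 to 27556 CPM. Mmp3 (stromelysin 1, which degrades proteoglycans and activates other collagenases) ranked next with 2015 to 15751 CPM, ahead of Dcn and Saa3. Slpi, a secreted inhibitor of neutrophil elastase, ranged from 528 to 7508 CPM. Tpt1, Mt1, Ftl1, Eef1a1, Fau, Lars2, Tmsb10 and AY036118 completed the 15 highest, between 2367 and 9316 CPM. A protease, an acute phase protein and an antiprotease thus stood among the most abundant messages of cells chosen for few UMIs of Cxcl5, Il1rl1 and Ptx3.

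The members were not of 1 kind. Clustering of the 2463 cells gave 13 sub-clusters, named below by the genes with the largest fold over the other members. The leading genes define the clusters and are a description. A marker counts as raised in a sub-cluster where its CPM, with 20 added, is at least 2-fold that of the other members. The largest, with 684 cells, was led by Igfbp2, F13a1, Serpina3n, Nt5e, Cdh4 and Grem1, with Igfbp2 (an insulin-like growth factor binding protein) at 1150 against 101 CPM in the other members. It held 21.8%, 35.9% and 16.7% of the untreated and 25%, 38.1% and 17.8% of the treated members at 8, 26 and 52 weeks. Its share was therefore highest at 26 weeks whatever the treatment.

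A second sub-cluster of 319 cells was led by the proteases and secreted factors Mmp13, Slpi, Ccl4, Mmp3, Nqo1 and 3300005D01Rik. Mmp13 (collagenase 3) was at 3450 CPM there against 328 CPM elsewhere. It held 2.26%, 4.84% and 2.63% of untreated members, and 16.0%, 25.5% and 31.9% of treated members, and the groups did not overlap. Its size and the rise of its leading genes are the same observation, so neither supports the other.

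The third, with 288 cells, was led by Saa3, Saa1, Lcn2, Wfdc12, Cxcl12 and Rarres2, and Saa3 was at 54883 CPM in it against 541 CPM in the other members. It made up 11.3%, 18.8% and 2.63% of untreated and 29.7%, 4.25% and 5.93% of treated members. The share of this cluster and the level of Saa3 are the same observation. The fifth, with 213 cells, was led by Csf3, Cxcl2, Ccl5, Cxcl3, Cxcl1 and Csf2, and 9 of 16 chemokine genes were raised.

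The fourth sub-cluster, 256 cells, was led by Pdia4, Hsp90b1, Pmel, Hspa5, Ptgds and Thbs4 and had 17 of 22 genes of the unfolded protein response raised, with 4 of 7 melanocyte genes. The unfolded protein response is the program by which the endoplasmic reticulum answers misfolded protein with chaperones. The cluster held 13.8%, 9.15% and 26.0% of untreated members but 2%, 4.25% and 5.93% of treated ones. The sixth, 174 cells, was led by the cornified envelope genes Lor, Klk6, Krtdap, Crct1, Lce1m and Lce3d, and 14 of 15 keratinocyte markers were raised. It held 29.4% of the untreated 8-week members and between 0.739% and 7.40% in the other libraries. The eighth, 138 cells, had 8 of 9 Schwann and 4 of 10 skeletal muscle markers raised. The sixth and eighth passed the fibroblast gate, but the markers raised in them were mainly those of other cell types, and like the fourth they are left unnamed. Of the 15 fibroblast identity genes 0 were raised in either, with sums of 3515 and 7698 CPM. The sub-clusters led by Mmp13, Saa3 and Scube3 also had 0 raised, with sums of 5585, 6582 and 4286 CPM. The count of raised identity genes alone therefore does not set the keratinocyte- and Schwann-led sub-clusters apart. In the fourth 2 of these genes were raised, and their sum was 10474 CPM.

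The seventh, 148 cells, was led by Cck, Ifitm1, Tnn, Cemip, Spp1 and Spon1 and had 5 of 11 papillary fibroblast markers raised. It also had 3 of 12 dermal papilla and sheath and 3 of 10 pericyte or smooth muscle markers raised. The ninth, 86 cells, was led by Myoc, Ccn2, Pi16, Hspb1, Ogn and Slc25a20, with 9 of 14 heat shock genes and 9 reticular or fascia markers raised. The tenth, 81 cells, was led by the nuclear RNAs Neat1, Rian, Meg3 and Malat1, and 42 of its cells came from untreated 52-week skin. The eleventh, 35 cells, was led by Scube3, Serpine2, Vcan, Rspo3, Corin and Hhip. It had 10 of 12 dermal papilla and sheath and 6 of 11 papillary markers raised, and is called dermal papilla-like. The dermal papilla is the fibroblast cluster at the base of the hair follicle that signals to the follicle epithelium. Of its cells 33 came from the untreated and 2 from the treated 52-week library. The twelfth (25 cells, led by Car4, Thbd and Prg4) came wholly, and the thirteenth (16 cells, led by Gm49257, Hspb1 and Krt14) all but 1 cell, from untreated 52-week skin. Of 15 keratinocyte markers 11 were raised in the twelfth and 9 in the thirteenth, and of 15 fibroblast identity genes 6 and 1. A cluster that is nearly all from 1 library may be that library and not a type.

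**Figure D2:**
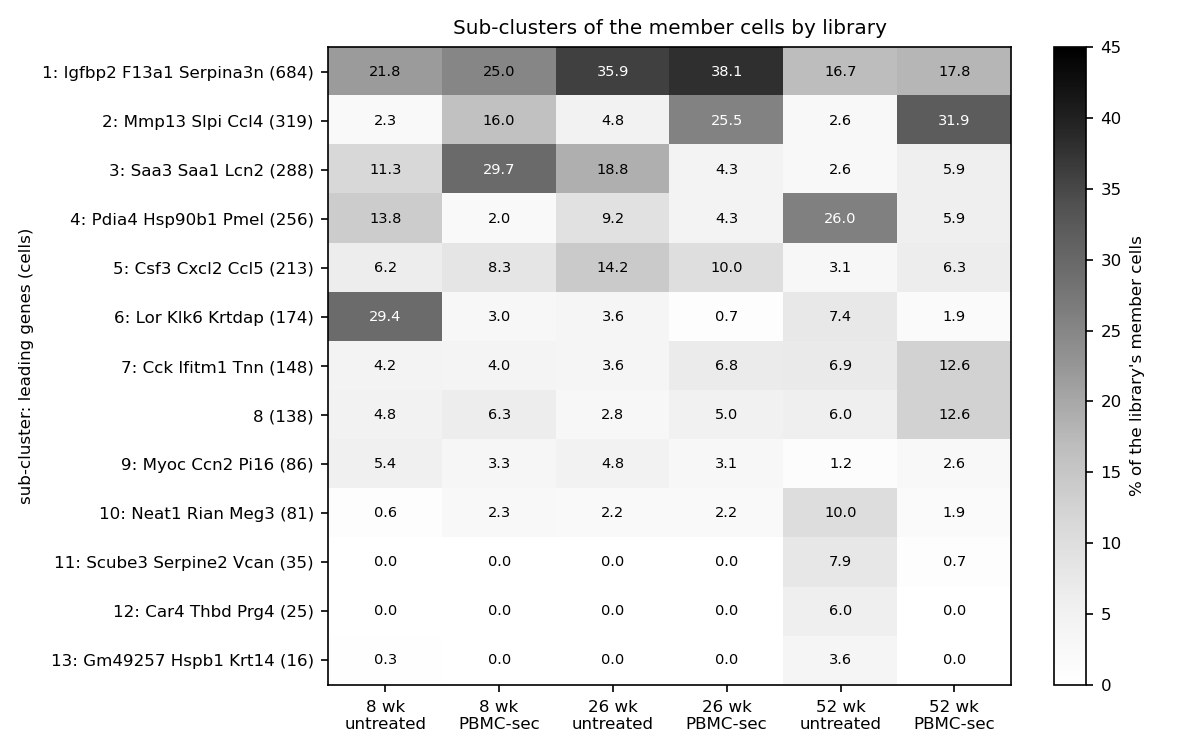
Percent of each library's Cxcl5/Ptx3-low members (columns) in each of 13 sub-clusters (rows, with cell numbers and, for all but the eighth, leading genes), as shading from 0 to 45%. The Mmp13 cluster held 16.0 to 31.9% of treated and 2.26 to 4.84% of untreated members, and the last 3 rows were filled almost wholly by untreated 52-week skin.

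Markers of other cell types moved with the groups. The summed level of 15 keratinocyte markers in the members was 9553, 8161 and 4158 CPM in untreated and 4573, 3669 and 2229 CPM in treated libraries. Cells that failed the fibroblast gate had 30665 to 38786 CPM. The 16 immune markers summed to 292, 103 and 92.1 CPM untreated and 111, 279 and 160 CPM treated, and between 0 and 8 of them were at 0. The 9 Schwann markers summed to 57.4, 95.1 and 62.6 CPM untreated and 129, 178 and 212 CPM treated. The 7 melanocyte markers summed to 430 CPM in untreated and 104 CPM in treated 52-week members and to between 31.7 and 42.9 CPM in the younger libraries, where Pmel, Tyrp1 and Tyr were at 0. The part that these cells, or RNA free in the suspension, had in the results was not tested. A gene is marked below as prone to free RNA where, in any library, the cells outside the class had over 5 times the members' CPM of it. A gene at or near 0 in the members of some library can meet this mark through that library alone, as Pmel did in the younger libraries.

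The first comparison set PBMC-sec against untreated skin within each age. Treated members had more RNA of Mmp13, Mmp19, Mmp3 and of 8 of 23 genes of the antioxidant NRF2 list, and less RNA of 21 of 25 interferon-stimulated genes and of 6 of 22 genes of the unfolded protein response. edgeR's quasi-likelihood test called 118 genes higher (1.34% of 8799 tested) and 182 lower (2.07%) at a Benjamini-Hochberg adjusted p under 0.05. The median log2 change over all tested genes was -0.005. Of the genes called, 11 of the higher and 63 of the lower were prone to free RNA, beside 628 of all 8799 tested. The 3 ages served as the pairs, so these p-values measure how evenly the difference recurred over ages, and not a spread between animals or replicate libraries.

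The largest rise was that of Akr1b3, an aldose reductase that detoxifies reactive aldehydes. It went from 41.3 to 351 CPM at 8 weeks, from 46.7 to 447 CPM at 26 weeks and from 54.7 to 458 CPM at 52 weeks. The treated libraries lay above every untreated one, with a log2 change of 3.15 ± 0.19 (SE, adjusted p = 8.59e-06). Mmp13 also rose at each age, from 165 to 926 CPM at 8 weeks, from 176 to 1529.6 CPM at 26 and from 189 to 1570.2 CPM at 52 weeks, for a log2 change of 2.91 ± 0.21 (adjusted p = 3.1e-05). Both kept their call in all 16 alternative analyses.

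Matrix proteases and their inhibitors were 27 tested genes, of which 4 were higher, 2 lower and 21 did not pass, with a median log2 change of 0.30. The list's summed level was 14543, 15854 and 8784 CPM untreated and 25325, 31653 and 19297 CPM treated. Mmp19 (a broad-spectrum metalloproteinase) rose from 44.3, 31.7 and 37.0 CPM in untreated to 240, 150 and 121 CPM in treated members, a log2 change of 2.13 ± 0.20 (adjusted p = 0.000172). Mmp3 rose from 5534, 5416 and 2015 CPM to 9203, 15751 and 9118 CPM, and the groups did not overlap. Its log2 change was 1.5 ± 0.29 (adjusted p = 0.0163). Slpi was at 2683, 3399 and 528 CPM untreated and at 7508, 7222 and 3184 CPM treated. Its treated 52-week value lay below the untreated 26-week value, but it was higher within each age, by a log2 change of 1.72 ± 0.30 (adjusted p = 0.00968). Without the 26-week pair, without the age term, and with the rule on thinned cells, neither Mmp3 nor Slpi passed, and Mmp3 did not pass without the sub-cluster of Hsp90b1 and Hspa5.

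The members of the list that fell were Mmp10 and Mmp9, a stromelysin and a gelatinase. Mmp10 went from 107, 74.8 and 175 CPM to 40.4, 64.1 and 66.3 CPM, a log2 change of -0.98 (adjusted p = 0.0403). Mmp9 is prone to free RNA, and it had 1, 1 and 8 UMIs in treated members against 30, 13 and 75 in untreated ones. Ctsk, the collagen-degrading cathepsin K, was at 728 to 1677 CPM untreated and 1035 to 1980 CPM treated, with a log2 change of 0.37 (adjusted p = 0.357).

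The promoters of Mmp13 and Mmp3 are shown because both genes rose in the treated members of every age and are classical targets of AP-1, a factor that binds TGANTCA. The 250 bases before each annotated start (RefSeq, GRCm38.p6) are written 5′ to 3′ on the gene's strand with matches to TGANTCA on either strand in capitals.
Mmp13 (chr9:7272264-7272513, + strand): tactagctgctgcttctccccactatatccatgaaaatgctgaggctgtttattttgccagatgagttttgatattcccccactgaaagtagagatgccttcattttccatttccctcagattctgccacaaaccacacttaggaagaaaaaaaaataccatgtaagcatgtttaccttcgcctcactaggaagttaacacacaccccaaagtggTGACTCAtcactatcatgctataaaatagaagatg
Mmp3 (chr9:7445572-7445821, + strand): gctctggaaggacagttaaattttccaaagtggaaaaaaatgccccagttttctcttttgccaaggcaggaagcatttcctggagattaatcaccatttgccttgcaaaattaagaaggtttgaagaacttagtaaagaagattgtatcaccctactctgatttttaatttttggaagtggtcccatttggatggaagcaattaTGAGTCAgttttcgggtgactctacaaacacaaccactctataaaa
Each window held 1 match, beginning 35 bases before the start of Mmp13 and 46 before that of Mmp3. In windows from 250 bases before to 50 after the start, 7.93% of 27025 promoters held the motif. So did 5.15% of the 6974 tested genes with a promoter entry, and 8 of 17 interferon genes called lower. Both genes lie on mouse chromosome 9, Mmp3 at 7445822-7455975 and Mmp13 at 7272514-7283331 on GRCm38. Promoters of other genes that rose were searched for other motifs. In the 250 bases before the start, Nqo1 and Srxn1 held 0 matches to the antioxidant motif TGACNNNGC. In the windows that reach 50 bases past the start, 2 of 5 NRF2 genes called higher held it (Srxn1 and Prdx1). So did 15.5% of the 6974 tested genes and 12.5% of all 27025 promoters. Hspa4l held 0 matches to the heat shock motif GAANNTTC. A match describes the sequence and does not show that the factor was bound.

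**Figure D3:**
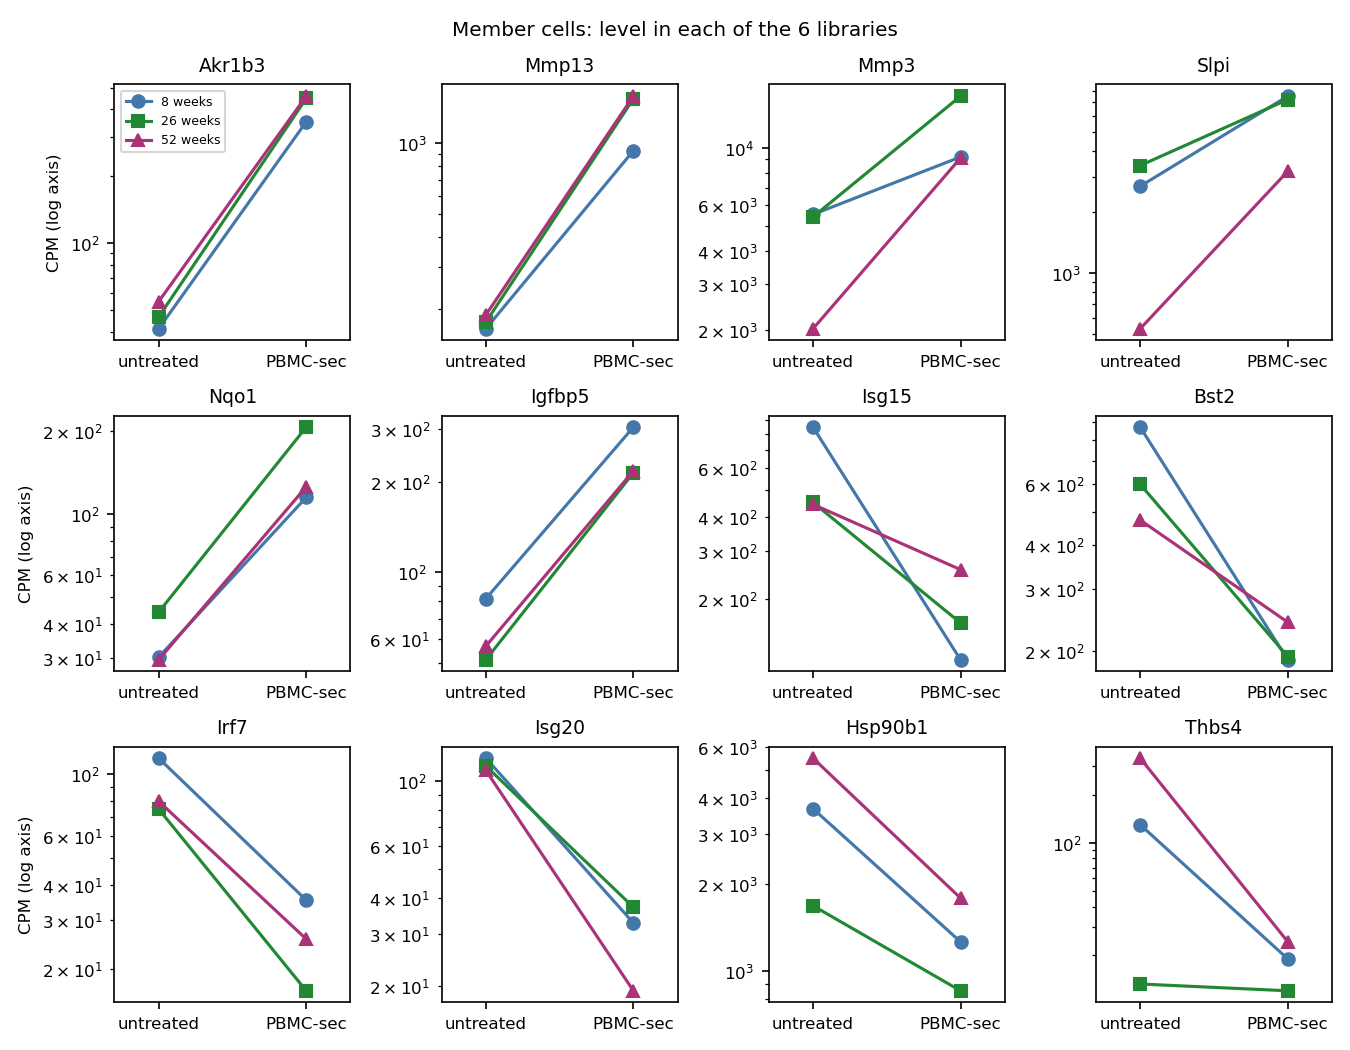
Level of 12 genes in the Cxcl5/Ptx3-low members of untreated and treated skin (x axis) as CPM on a log axis, with 1 line per age. Akr1b3, Mmp13, Mmp3, Slpi, Nqo1 and Igfbp5 were higher and Isg15, Bst2, Irf7, Isg20, Hsp90b1 and Thbs4 lower in the treated library of each age.

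NRF2 is the transcription factor that switches on glutathione synthesis, thioredoxin and quinone-reducing enzymes in response to oxidants and electrophiles. Of 23 tested genes of that list, 8 were higher, 0 lower and 15 did not pass, with a median log2 change of 0.70. The genes called were Nqo1, Gclc, Slc7a11, Srxn1, Gsr, Prdx1, Akr1b3 and Akr1b8, and in the 16 alternatives between 3 and 12 members were called higher. Nqo1 (NAD(P)H quinone dehydrogenase) rose from 30.2, 44.0 and 29.6 CPM to 115, 207 and 126 CPM, a log2 change of 2.11 ± 0.20 (adjusted p = 0.000172). Srxn1 (sulfiredoxin) went from 106, 144 and 103 CPM to 304, 360 and 353 CPM, a log2 change of 1.55 ± 0.20 (adjusted p = 0.00131). Neither gene's groups overlapped. Fth1, Mt1 and Ftl1, the most abundant members, had log2 changes of 0.74, -0.53 and 0.19 with adjusted p of 0.222, 0.212 and 0.735.

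Among the further rises, several belong to small heat shock proteins and linker histones. Hspa4l, a co-chaperone of the Hsp110 family, rose from 68.5, 59.0 and 63.1 CPM to 314, 297 and 261 CPM (log2 change 2.21 ± 0.18, adjusted p = 8.06e-05). Cryab (alpha-B crystallin) rose from 892, 972 and 672 CPM to 2062, 4189 and 2368 CPM, with a log2 change of 1.73 ± 0.22 (adjusted p = 0.00131), and its neighbour Hspb2 had a log2 change of 2.25. The linker histone genes H1f0 and Hist1h1c both had a log2 change of 2.07. Igfbp5, a binding protein of insulin-like growth factors, rose from 81.5, 51.1 and 56.7 CPM to 304, 214 and 217 CPM (log2 change 1.98 ± 0.18, adjusted p = 0.000172). For each of these genes the lowest treated library lay above the highest untreated one. Cck, which encodes cholecystokinin, rose by a log2 change of 2.28 ± 0.54 (adjusted p = 0.0396) but went from 56.4 to 79.5 CPM at 8 weeks and from 10.8 to 196 CPM at 52 weeks, and it kept its call in 8 of 16 alternatives.

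Most interferon-stimulated genes of the list were lower in treated members. Type I interferons act through a cell-surface receptor and switch on antiviral genes, many through a promoter element with paired GAAA cores. Of 25 tested genes of the list, 0 were higher, 21 lower and 4 did not pass, all 25 had a negative log2 change, and the median was -1.59. The list's sum was 3522, 2061 and 2288 CPM untreated and 855, 656 and 1164 CPM treated. Over the alternatives between 5 and 25 members were called lower, and the median lay between -1.85 and -1.29. The list was chosen with earlier results of these libraries known, so its direction is not independent evidence.

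Bst2 (tetherin, which holds budding virions at the cell surface) fell from 873, 599 and 473 CPM to 188, 192 and 241 CPM, a log2 change of -1.59 ± 0.25 (adjusted p = 0.00425). Isg15, a ubiquitin-like modifier, fell from 849, 451 and 443 CPM to 120, 164 and 256 CPM, a log2 change of -1.64 ± 0.32 (adjusted p = 0.0163). The groups did not overlap for either gene, and the difference was widest at 8 and narrowest at 52 weeks. Irf7, the factor that amplifies interferon production, fell from 114, 74.8 and 79.8 CPM to 35.4, 16.8 and 25.7 CPM, a log2 change of -1.80 ± 0.22 (adjusted p = 0.00128), and kept its call in all 16 alternatives. Ifi27l2a was at 274, 157 and 194 CPM untreated and 136, 25.2 and 214 CPM treated and did not pass (log2 change -1.03, adjusted p = 0.212). Outside the list, the exonuclease gene Isg20 fell by 1.96 on the log2 scale (adjusted p = 0.000533), and Ifi205 by 1.41. Ifi203, of the same gene family as Ifi205, fell by 1.60, and reads that fit both genes may have been left out or split in the authors' counting. Without the 26-week pair, and with the rule on thinned cells, neither Isg15 nor Bst2 passed.

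The promoters of Isg15 and Bst2 are shown as those of the most abundant interferon genes that fell. They are written as above (250 bases before the RefSeq start, GRCm38.p6), with matches to GAAANNGAA on either strand in capitals.
Isg15 (chr4:156200819-156201068, - strand): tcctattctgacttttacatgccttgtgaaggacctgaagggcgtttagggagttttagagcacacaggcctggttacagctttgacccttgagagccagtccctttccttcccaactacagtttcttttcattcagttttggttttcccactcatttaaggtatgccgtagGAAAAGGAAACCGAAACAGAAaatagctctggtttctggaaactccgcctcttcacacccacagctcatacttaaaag
Bst2 (chr8:71537473-71537722, - strand): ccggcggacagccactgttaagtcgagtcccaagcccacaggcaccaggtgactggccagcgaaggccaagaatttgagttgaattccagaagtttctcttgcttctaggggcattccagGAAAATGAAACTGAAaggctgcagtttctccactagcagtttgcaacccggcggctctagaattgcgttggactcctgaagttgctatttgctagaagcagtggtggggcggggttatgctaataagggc
The Isg15 window held 3 overlapping matches and the Bst2 window 2, beginning 78 and 130 bases before the start. Over windows from 250 bases before to 50 after the start, 10 of 17 interferon genes called lower held the motif, and 8.57% of all 27025 promoters and 7.11% of the 6974 tested genes with a promoter entry did. Irf7 and Isg20 had no match in this window. The motif overlaps no TGANTCA match in either sequence shown.

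Antigen presentation genes, which interferons also raise, had few calls. Of 10 tested class I genes 0 were higher and 2 lower, with a median of -0.19. Tap1, a peptide transporter subunit, fell by 0.94 on the log2 scale (adjusted p = 0.0326), and Psmb9, an immunoproteasome subunit, by 1.40 (adjusted p = 0.0431). B2m, H2-D1 and H2-K1, the abundant chains of the class I complex, had log2 changes of -0.18, 0.05 and -0.04, with adjusted p of 0.726, 0.928 and 0.937. Cxcl10, an interferon-induced chemokine, fell from 96.6, 37.9 and 61.1 CPM to 11.4, 7.79 and 29.9 CPM (log2 change -1.89 ± 0.35, adjusted p = 0.0124).

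Several chaperones of the endoplasmic reticulum fell in the treated members. Of 22 tested genes of the unfolded protein response, 0 were higher, 6 lower and 16 did not pass, with a median of -0.57. Hsp90b1 (GRP94) went from 3668, 1686 and 5495 CPM to 1263, 853 and 1792 CPM, a log2 change of -1.37 ± 0.20 (adjusted p = 0.00295). Hspa5 (BiP) went from 4020, 1807 and 6185 CPM to 1545, 1298 and 2631 CPM, a log2 change of -1.02 ± 0.22 (adjusted p = 0.025). In both genes the treated 52-week library lay above the untreated 26-week one. Pdia3, Pdia4, Pdia6 (disulfide isomerases) and the secreted chaperone Manf fell by 0.87, 0.82, 1.08 and 0.78, and Calr had a log2 change of -0.65 (adjusted p = 0.0797). Without the sub-cluster of Hsp90b1 and Hspa5, 0 of the 22 were lower and 1 higher, the median was -0.06 and Hsp90b1 had a log2 change of -0.50. That sub-cluster held 49, 53 and 109 untreated and 6, 23 and 16 treated cells. It is defined by high levels of these genes, so leaving it out shrinks the change by construction, and its size and the fall of the chaperones are the same observation.

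Cytosolic heat shock genes had 0 higher and 4 lower of 14 tested, with a median of -0.27. Hspa1a and Hspa1b, near-identical copies of inducible Hsp70 whose reads may be shared, fell by 0.82 and 0.98 on the log2 scale (adjusted p = 0.0492 and 0.0377). Hspb1 (Hsp27) fell from 1619.8, 947 and 1349.9 CPM to 350, 224 and 271 CPM, a log2 change of -2.19 ± 0.18 (adjusted p = 8.06e-05), and Dnajb1 fell by 1.81. Hspb1 and Dnajb1 are prone to free RNA and the keratinocyte marker sum fell as well. The rise of Hspa4l, Cryab and Hspb2 and the fall of Hspb1 and the Hsp70 genes show that chaperones did not move as 1 group.

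Structural matrix was lower in single genes. Of 30 tested matrix genes 0 were higher, 6 lower and 24 did not pass, with a median of -0.18. The genes that fell were Col12a1, Col14a1 and Col15a1, collagens that associate with fibrils or basement membranes, with Mfap4, Postn and the collagen-crosslinking enzyme Lox. Lox went from 90.6, 107 and 293 CPM to 63.1, 35.3 and 42.1 CPM, a log2 change of -1.68 ± 0.32 (adjusted p = 0.0143). Col14a1 fell by 1.62 on the log2 scale (adjusted p = 0.0197), and Col12a1, Col15a1, Mfap4 and Postn had changes of -1.01, -1.10, -1.06 and -0.93. Bgn, Tnc and Lum, the most abundant of the list, had log2 changes of -0.51, 0.63 and 0.56 and did not pass (adjusted p = 0.308, 0.0926 and 0.168). Without the 26-week pair, without the 52-week pair or without the age term, 0 of the list were called. The 15 genes of fibroblast identity had 0 calls in either direction and a median of 0.32, with Vim at -0.69, Gsn at 0.34 and Lum at 0.56.

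Further falls were those of Thbs4 (thrombospondin 4), Gpx3 (a secreted glutathione peroxidase), Dhrs7 and Trappc6a. Thbs4 was at 130, 13.2 and 337 CPM untreated and 18.9, 12 and 24.2 CPM treated, a log2 change of -2.59 ± 0.45 (adjusted p = 0.00917). Its 26-week values hardly differed, and without the 52-week pair it did not pass. Gpx3 fell from 370, 264 and 114 CPM to 116, 94.0 and 47.1 CPM, a log2 change of -1.48 ± 0.19 (adjusted p = 0.00149). Dhrs7 and Trappc6a fell by 1.46 and 1.57 on the log2 scale.

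**Figure D4:**
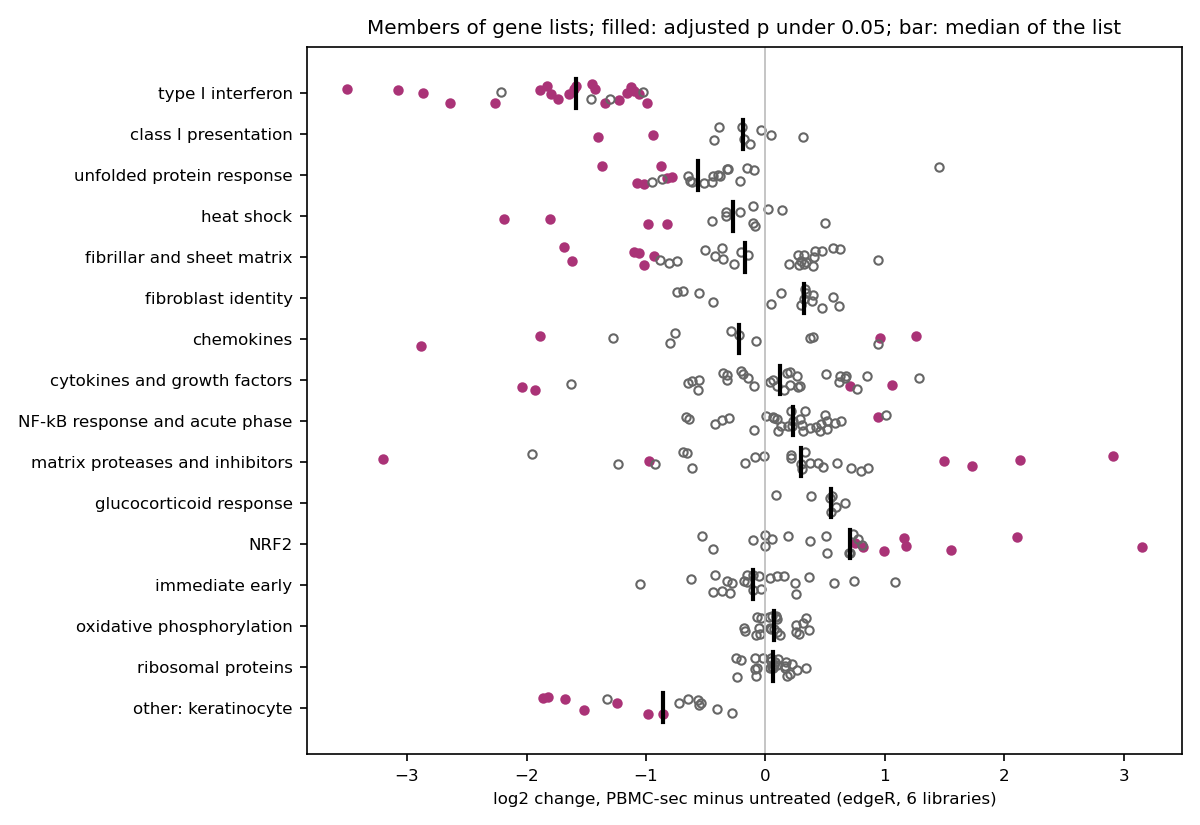
Log2 change (PBMC-sec minus untreated, x axis) of each tested gene of 16 lists (rows) in the Cxcl5/Ptx3-low members. Filled points passed an adjusted p of 0.05, open points did not, and bars are list medians, from -1.59 for type I interferon to 0.70 for NRF2.

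Secreted signals split. Of 13 tested chemokines 2 were higher and 2 lower. Cxcl2, a neutrophil attractant, rose from 482, 1154 and 951 CPM to 1408, 2653 and 1913 CPM (log2 change 1.26 ± 0.19, adjusted p = 0.00376), and its relative Cxcl3, prone to free RNA, rose by 0.95. Ccl20 fell by 2.88 but had 9 or fewer UMIs in each treated library and is prone to free RNA. Cxcl1 and Ccl2, the most abundant with Cxcl2, had log2 changes of 0.94 (adjusted p = 0.0926) and 0.39 (adjusted p = 0.391). Of 34 tested cytokines and growth factors 2 were higher and 2 lower: the colony stimulating factor genes Csf1 and Csf2 rose by log2 changes of 0.71 and 1.06 (calls kept in 5 and 12 of 16 alternatives), and Il33 (prone to free RNA) and Rspo3 fell by 1.92 and 2.04. Rspo3, a Wnt agonist of the dermal papilla, had 390 UMIs in untreated 52-week members and 31 or fewer elsewhere, and without the clusters filled by 1 library its log2 change was 0.12. The rule limits Cxcl5, so genes that vary with it from cell to cell are read here only in cells under that limit.

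NF-kB and acute phase genes had 1 call among 31 tested, the mitochondrial superoxide dismutase Sod2, which rose from 554, 742 and 434 CPM to 1237, 1226 and 814 CPM (log2 change 0.94 ± 0.19, adjusted p = 0.0187). Nfkbia and Cebpb had log2 changes of 0.19 and 0.43 (adjusted p = 0.662 and 0.258). Saa3, with the per-library values above, had a log2 change of 0.63 ± 0.97 (adjusted p = 0.799). It was higher in treated members at 8 and 52 weeks and lower at 26 weeks, so the spread between ages exceeded the mean difference.

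Other lists were quiet. Oxidative phosphorylation (23 tested), ribosomal protein (25), cholesterol and lipid synthesis (18), immediate early (24), complement (9) and glucocorticoid response genes (7) had 0 calls, with medians of 0.07, 0.07, 0.06, -0.10, 0.05 and 0.55. All 7 glucocorticoid genes had positive values, with Errfi1 at 0.54, Klf9 at 0.38 and Sgk1 at 0.59, and none passed. Glycolysis and hypoxia genes had 0 higher and 2 lower of 26. Senescence and p53 genes had Igfbp5 higher and Igfbp3 (prone to free RNA) lower of 15. Among the subtype markers, Pdpn of 10 papillary genes rose by a log2 change of 1.11 (adjusted p = 0.0326). Of 12 reticular or fascia genes Procr rose by 1.47, whereas Gpx3 and Plac8 fell by 1.48 and 1.69. Of 15 keratinocyte markers 7 were lower and 0 higher with a median of -0.86, and 2 of 6 tested Schwann markers were higher. Of 6 tested melanocyte markers 0 were higher and 2 lower (Pmel and Dct, both prone to free RNA), with a median of -1.89, and Pmel is also a leading gene of the sub-cluster of Hsp90b1 and Hspa5.

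The second comparison set 52 against 8 weeks, with the untreated and the treated library of an age as its samples. Fewer genes passed: 19 were higher (0.216%) and 83 lower (0.943%) of 8799. Prone to free RNA were 62 of the 83 and 7 of the 19, beside 628 of all genes tested. With the rule applied to thinned cells 0 genes passed (689 at an unadjusted p under 0.05 in edgeR, against 977 in the comparison as made), and DESeq2 called 63. Since both libraries of an age may come from the same animals, a single pool of 3 animals per age may stand behind these p-values.

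Col12a1, Plod2 and Ctla2a were among the genes higher at 52 weeks. Col12a1 was at 64.4 and 48.0 CPM at 8 weeks and 250 and 99.8 CPM at 52 weeks (untreated and treated), a log2 change of 1.39 ± 0.27 (adjusted p = 0.0264). Plod2, the lysyl hydroxylase of collagen telopeptides, rose from 45.3 and 26.5 CPM to 191 and 62.0 CPM (log2 change 1.57 ± 0.27, adjusted p = 0.0122). Ctla2a, a cathepsin inhibitor, was at 13.1 and 27.8 CPM at 8 weeks, 213 and 305 CPM at 26 weeks and 55.2 and 182 CPM at 52 weeks, so its highest level was at 26 weeks (52 against 8 weeks: log2 change 2.31, adjusted p = 0.0093). Spon1, a matrix protein, was named as the closest gene that did not pass (log2 change 1.34, adjusted p = 0.0521).

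Vcan (versican, a large proteoglycan of the dermal papilla) rose by a log2 change of 3.50 ± 0.72 (adjusted p = 0.0341), but its values were 16.1 and 20.2 CPM at 8 weeks and 481 and 64.9 CPM at 52 weeks. Without the clusters filled almost wholly by 1 library its change was 1.73. Rspo3, of the same dermal papilla-like cluster, had a log2 change of 3.24, which was 0.09 (adjusted p = 0.966) without these clusters. In treated members Rspo3 went from 6.31 CPM at 8 weeks to 22.1 CPM at 52 weeks, so both genes were also higher in the treated 52-week library, by a smaller step than in untreated skin.

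Cdkn2a, the p16 and ARF locus that marks senescent cells, had 3 and 1 UMIs at 8 weeks, 13 and 14 at 26 weeks, then 71 and 89 at 52 weeks, or 3.02 and 1.26, 11.4 and 8.38, and 35.0 and 63.5 CPM. Both libraries of each age lay above both of the next younger age. It was called higher at 52 weeks (log2 change 4.21, adjusted p = 0.00431), a fitted value that depends on the prior count given so few UMIs at 8 weeks. It kept its call in 12 of 13 alternatives, the exception being the thinned rule. The other 14 senescence and p53 genes did not pass. Tagln (transgelin) had 3 and 11 UMIs at 8 weeks and 149 and 92 at 52 weeks (log2 change 2.97, adjusted p = 0.00677). These come from sums of 993331 and 791996 UMIs at 8 weeks and 2029767 and 1402407 at 52 weeks. Tagln did not pass with the thinned rule or without the sub-cluster of Hsp90b1 and Hspa5. It is also a pericyte and smooth muscle marker, and of 5 such markers tested it was the 1 higher, while 1 (Ndufa4l2) was lower.

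The secreted proteins encoded by Saa1, Wfdc12 and Slpi act in defence, and these genes were lower at 52 weeks. Of 31 tested NF-kB and acute phase genes 0 were higher and 1, Saa1, lower, with a median of -0.21. Saa1 was at 405 and 931 CPM at 8 weeks and 29.6 and 73.4 CPM at 52 weeks, a log2 change of -3.83 ± 0.61 (adjusted p = 0.00835). Reads of Saa1 may be shared with its near-identical neighbour Saa2. Wfdc12 fell from 499 and 335 CPM to 44.8 and 61.3 CPM (log2 change -3.03 ± 0.45, adjusted p = 0.00604), and Slpi, of the same inhibitor family, by 1.85 (adjusted p = 0.029). Saa3 had a log2 change of -2.55 ± 0.96 and did not pass (adjusted p = 0.324). Mfap4 (microfibril-associated), Gpx3, Cd34 and Ogn (osteoglycin) fell by 1.99, 1.67, 1.62 and 2.07 on the log2 scale. Ly6a and Cd34, surface markers of reticular and fascia fibroblasts, were with Gpx3 the 3 of 12 genes of that list that fell (Ly6a log2 change -1.40, adjusted p = 0.0378), and Klf2 was the lone immediate early gene lower at 52 weeks (log2 change -1.32). Saa1, Wfdc12 and Saa3 are leading genes of 1 sub-cluster, which held 40 and 89 cells at 8 weeks and 11 and 16 at 52 weeks. Gpx3 and Ogn were at 2469 and 715 CPM in the ninth sub-cluster, against 110 and 14.6 CPM in the other members. The ninth held 19 and 10 cells at 8 weeks and 5 and 7 at 52 weeks, so its size and the fall of these 2 genes are not separate observations.

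Type I interferon (25), unfolded protein response (22), NRF2 (23) and class I genes (10) had 0 calls with age, with medians of -0.31, 0.23, 0.15 and -0.16 beside 0.006 for all genes tested. Matrix genes had 2 higher (Col12a1, Vcan) and 2 lower (Ogn, Mfap4) of 30. Keratinocyte markers had 9 of 15 lower and a median of -1.66, in step with the marker sums above. Melanocyte genes appeared at 52 weeks: Pmel had 332 UMIs in untreated and 13 in treated members and 0 in the 4 younger libraries, and Dct had 233 and 38, against 1 in the younger libraries together. Ptgds, a prostaglandin synthase that melanocytes and several other skin cells express, had 517 and 116 UMIs against 2 in the younger libraries together. No fold is given for Pmel, whose 8-week libraries were at 0.

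The third comparison tested whether the difference between treated and untreated skin was the same in Cxcl5/Ptx3-low and Cxcl5/Ptx3-high fibroblasts of the same libraries. It was larger in the positive direction in members for 52 genes (0.5% of 10398 tested) and in the negative direction for 80 (0.769%). Of these, 6 and 65 were prone to free RNA, beside 1222 of all genes tested. A positive value means that the log2 change was higher in members, whatever its sign in either class. The mixture of sub-clusters differed between the libraries (the Mmp13 cluster held 16.0 to 31.9% of treated and 2.26 to 4.84% of untreated members), so these differences are between mixtures.

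Collagen VI genes and Fbln2 differed in response between the classes. The rule held members under 2% collagen and set no such limit on Cxcl5/Ptx3-high cells, so matrix genes that vary with collagen are compared under unlike limits. At 52 weeks Col1a1 went from 3796 to 321 CPM in Cxcl5/Ptx3-high cells and from 2612 to 785 CPM in members. The part of this limit in the differences below was not tested. Col6a3, a chain of the beaded-filament collagen VI, was at 183, 88.0 and 313 CPM in untreated and 285, 131 and 264 CPM in treated members, while Cxcl5/Ptx3-high cells went from 121, 69.9 and 265 CPM to 50.6, 26.6 and 71.0 CPM. It thus fell at every age in the Cxcl5/Ptx3-high class and at 52 weeks alone in the members, a difference of 1.82 ± 0.20 on the log2 scale (adjusted p = 0.000178). Fbln2 (fibulin 2) behaved likewise: 132, 125 and 301 CPM untreated and 200, 192 and 256 CPM treated in members, against 166, 54.6 and 437 CPM and 102, 33.5 and 181 CPM in the other class (difference 1.20 ± 0.19, adjusted p = 0.00469). Both kept their call in all 14 alternatives. Col6a1 and Col6a2 had differences of 1.24 and 1.31 (adjusted p = 0.00785 and 0.00637), and Eln and Ogn of 3.76 and 1.73. Eln was at 0 to 19.9 CPM in Cxcl5/Ptx3-high cells, so its fitted value depends on the prior count.

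Over the lists, 6 of 31 tested matrix genes (Col6a1, Col6a2, Col6a3, Eln, Ogn and Fbln2) had a higher treatment response in members and 1 (Fn1) a lower one, with a median of 0.43 beside 0.018 for all genes tested. Fibroblast identity had 4 of 15 higher (Pdgfrb, Col6a1, Col6a2 and Col6a3) and a median of 0.41. Pdgfrb, the platelet-derived growth factor receptor, had a difference of 1.01 (adjusted p = 0.0197). Proteases had Mmp19, Adamts1, Adamts2 and Adamts5 higher (1.20, 0.78, 1.06 and 1.48) and Mmp9 lower. Of the 37 cytokine and growth factor genes 0 were higher and 4 lower: Il11 (-2.35), Tslp (-1.91), Ereg (-1.68) and Areg (-1.63), all prone to free RNA, the last pair being ligands of the epidermal growth factor receptor.

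Igfbp5 rose in members at every age, as given above, and went from 110, 62.9 and 86.9 CPM to 144, 12.8 and 123 CPM in Cxcl5/Ptx3-high cells, a difference of 2.22 ± 0.36 (adjusted p = 0.00469). H2-Q6, a non-classical class I gene, was at 103, 65.1 and 118 CPM untreated and 104, 90.4 and 127 CPM treated in members, and fell from 235, 105 and 115 CPM to 23.2, 33.0 and 69.1 CPM in the other class (difference 1.98 ± 0.32, adjusted p = 0.00469). H2-Q genes are near-identical copies, and their reads may be split or lost. Of 11 tested class I genes 2 passed (H2-Q4 and Psmb8, differences of 1.06 and 1.06, with calls kept in 8 and 6 of 14 alternatives), all 11 were positive and the median was 0.90. Of the 25 interferon-stimulated genes 1 passed (Rsad2, prone to free RNA, -1.73) and the median was -0.11. The interferon-induced chemokine Cxcl10, on another list, had a positive difference of 1.23 (adjusted p = 0.0374). Isg15 fell in both classes, from 2080.3, 1485 and 976 CPM to 424, 395 and 742 CPM in Cxcl5/Ptx3-high cells, with a difference of -0.16 (adjusted p = 0.864), and Bst2 had one of -0.13 (adjusted p = 0.876). A p that misses the threshold does not show that the 2 classes responded alike.

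**Figure D5:**
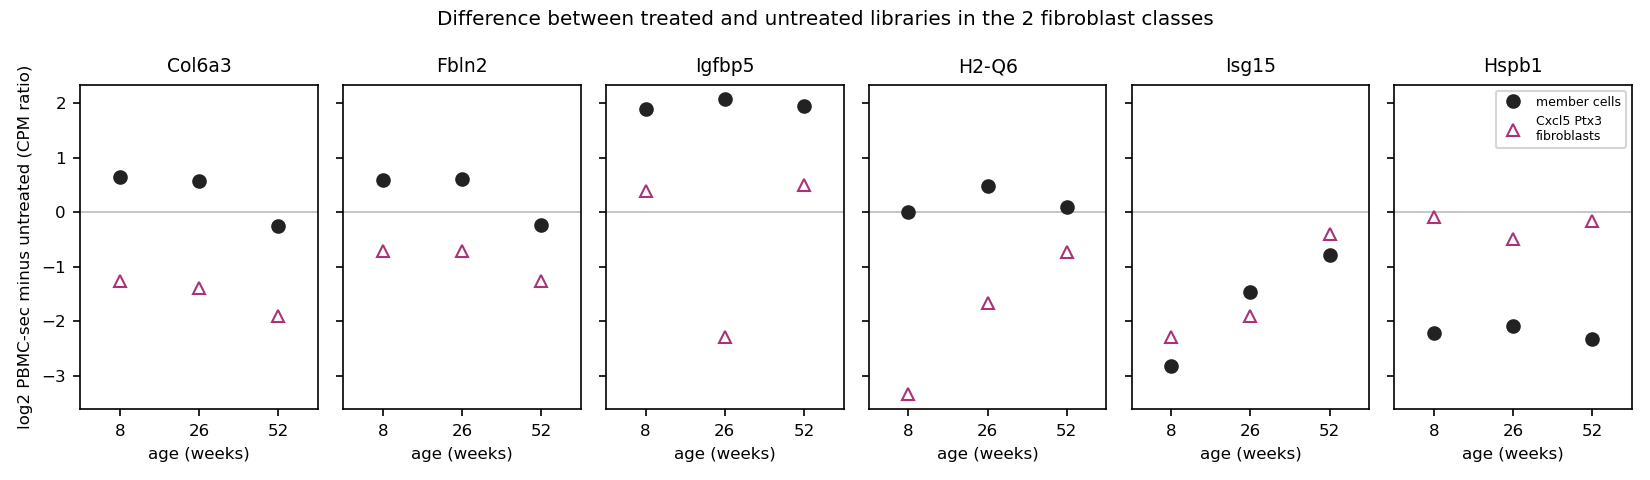
Log2 ratio of treated to untreated CPM (y axis) at each age (x axis) for 6 genes in Cxcl5/Ptx3-low members (circles) and Cxcl5/Ptx3-high fibroblasts (triangles). Col6a3 and Fbln2 lay higher in members at each age, Hspb1 lay lower, and Isg15 was below 0 in both classes.

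Hspb1 fell in members at each age, with the levels above, and stayed between 276 and 449 CPM in Cxcl5/Ptx3-high cells, a difference of -1.96 ± 0.18 (adjusted p = 1.66e-05) that kept its call in all 14 alternatives. None of these left out the ninth sub-cluster (86 cells), where Hspb1 was at 13662 CPM against 574 CPM in the other members. The part of that sub-cluster in the difference was not tested. Of 14 heat shock genes Hspb1, Hsph1 and Dnajb1 were lower and Dnajb4 higher. Crct1, Krt1, Fabp5, Sprr1a and Gsta4, named with Hspb1 as the 6 smallest p-values in that direction, are epidermal or epidermis-rich genes prone to free RNA, with differences of -3.38, -2.12, -1.31, -2.07 and -1.53. Of 15 keratinocyte markers 8 were lower in this comparison. When the rule was applied to thinned cells, Crct1, Krt1, Fabp5 and Sprr1a changed sign. Ccl4 and Ccl5, chemokines that T cells and macrophages make in quantity, had positive differences (2.49 and 1.87) and are prone to free RNA, and Ccl4 had 117, 4 and 47 UMIs in untreated and 2, 4 and 230 in treated members.

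The comparison with collagen-high fibroblasts rested on 122 cells, of which 5 to 64 were in a library. It called 4 genes higher (0.0541% of 7396) and 5 lower (0.0676%). The response in members was higher for Igfbp2, Mmp13, Inhba (the activin A subunit) and Crabp1 (a retinoic acid binding protein), by 3.05, 4.42, 3.99 and 2.88 on the log2 scale with adjusted p of 4.7e-05, 0.00305, 0.0172 and 0.0331. It was lower for Gadd45g (-2.90, adjusted p = 0.00511) and for the free-RNA-prone Dmkn, Krtdap and Krt16. Without the 52-week pair 0 genes were called (27 at an unadjusted p under 0.05 in edgeR). Over the 11 alternatives, that one included, Igfbp2 lay between 2.64 and 3.73 and Gadd45g between -3.30 and -2.12. The other named genes varied more. Mmp13 lay between 2.96 and 9.50, Inhba between 2.49 and 7.54 and Crabp1 between 2.47 and 10.2. Dmkn lay between -4.475 and -1.533, Krt16 between -3.09 and -0.56, and Krtdap between -3.19 and 0.70. The median log2 difference over all genes tested was 0.18.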

How the data were processed

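The deposited matrices are raw UMI counts by gene and by barcode, and per the file headers Cell Ranger 5.0.1 wrote them. Per the labels, libraries were made with the Chromium 3′ chemistry. GRCm38 (mm10) is the build named by the submitters' processing notes, and no source used here names the annotation release. The other deposited files list barcodes and 32285 gene names. Of the genes on the lists, 3 are not analysed here.

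Counts were summed over the member cells of each library and tested with edgeR 4.0.16 (R 4.3.3; quasi-likelihood test, TMM factors, filterByExpr) with age and treatment as terms, which leaves 2 residual degrees of freedom. Class by treatment terms were fitted to 12 sums with the library as a block. The 17 genes of the rule counted toward library sizes and were not tested. P-values were adjusted by Benjamini-Hochberg over all genes tested, with a threshold of 0.05. Total UMIs of the members ranged from 791996 to 2029767 per library. A standard error is the log2 change over the root of its F statistic. Sub-clusters were made with leidenalg 0.10.2 (resolution 0.8, 30 principal components, 20 neighbours, 2000 variable genes). The scripts were tested on simulated data.

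The members and the gene lists were chosen with earlier results of these data known. Genes named for PBMC-sec passed the threshold with 1 direction at all 3 ages, had a mean of at least 50 CPM, were not prone to free RNA, and were the 12 largest rises and 12 largest falls. For age they were the 6 largest, topped up to 5 by p-value where fewer passed, and for class differences the 6 smallest p-values each way. From a list the 3 members of highest mean CPM were named, and all that passed where these were 6 or fewer. Levels were named for the 15 most abundant genes, and sub-clusters by 6 leading genes. Melanocyte genes, Ptgds and some of the NRF2 enzymes were named outside this rule, after their values were seen. Alternatives were DESeq2 1.42.0 and its size factors, no filter on low counts, no age term, leaving out each age pair, doublets, near-identical barcodes or cells with immune UMIs, thinning, stricter gates, and 3 sets of sub-clusters chosen after the data were seen. Promoters are those of RefSeq. Some genes are not reported here.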

Additional observations from a re-analysis of the deposited data

Results flagged for a closer look

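The difference between treated and untreated skin was not the same in Cxcl5/Ptx3-low and Cxcl5/Ptx3-high fibroblasts for 132 genes by a test of the difference itself (edgeR, adjusted over all genes), and the 12 with the smallest p-values that met the level minimum are given here. It was more positive in the Cxcl5/Ptx3-low cells for Col6a3 (1.82 on the log2 scale), Fbln2 (1.20), Igfbp5 (2.22) and H2-Q6 (1.98), and for Ccl4 (2.49) and Ccl5 (1.87), which are prone to free RNA. It was more negative for Crct1 (-3.38), Hspb1 (-1.96), Krt1 (-2.12), Fabp5 (-1.31), Sprr1a (-2.07) and Gsta4 (-1.53), all prone to free RNA, and the keratinocyte marker sum of the members was lower in treated skin at each age. Of these 12, Col6a3, Fbln2 and Hspb1 kept their call in all 14 alternatives. None of these alternatives put the 2% collagen limit of the members on Cxcl5/Ptx3-high cells. None left out the ninth sub-cluster, of which Hspb1 is a leading gene.

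Against collagen-high fibroblasts the same test gave more positive differences for Igfbp2 (3.05), Mmp13 (4.42), Inhba (3.99) and Crabp1 (2.88) and a more negative one for Gadd45g (-2.90). These rest on collagen-high sums of 5, 8, 23, 8, 64 and 14 cells, and none of them was called without the 52-week pair, although no sign changed.

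Saa3 moved in opposite directions between ages: its log2 ratio of treated to untreated CPM in the members was 1.33 at 8 weeks, -3.31 at 26 weeks and 2.74 at 52 weeks. With 1 library per age and treatment this difference between ages was not tested. The share of members in the sub-cluster led by Saa3 changed from 11.3% to 29.7%, from 18.8% to 4.25% and from 2.63% to 5.93%.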

How the results depend on the processing

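The 300 genes called for PBMC-sec were 676 without a filter on low counts, 58 with the rule on thinned cells, 29 without the age term, 132 with DESeq2 and 197 without the sub-cluster of Hsp90b1 and Hspa5, and 80 to 260 when an age pair was left out. The share of higher calls went from 39.3% to 58.6% without the age term. The 102 age calls were 369 without the filter, 0 with thinned cells, 46 with a gate of 10 UMIs, 63 with DESeq2, 33 without the keratinocyte- and Schwann-led sub-clusters, and 76 without the 26-week pair. Leaving out all treated or all untreated libraries leaves the age contrast no residual degrees of freedom, so it has no value. The 132 calls against Cxcl5/Ptx3-high fibroblasts were 308 without the filter, 82 without cells with immune UMIs, 29 with thinned cells (65.5% higher, against 39.4%), 79 without the keratinocyte- and Schwann-led sub-clusters, and 52 to 245 when an age pair was left out. The 9 calls against collagen-high fibroblasts were 5 without the filter, 17 with thinned cells, and 0 to 11 when an age pair was left out. Other settings kept these counts within 1.5 times.

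The member share was moved by thinning in each library (65.6%, 43.6%, 60.9%, 71.8%, 56.4% and 43.2%, untreated before treated by age) and by leaving out cells with immune UMIs in treated libraries (37.5%, 62.6% and 42.5%).

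Signs changed for these log2 values. With thinned cells: Ccl20 2.78 and Krtdap 0.89 (PBMC-sec), Krtdap 1.11 (age) and 0.70 (against collagen-high), and, against Cxcl5/Ptx3-high, Crct1 3.58, Krt1 1.31, Fabp5 0.65, Sprr1a 1.82 and Isg15 0.036. Without the sub-cluster of Hsp90b1: Manf 0.38, Bgn 0.021 and H2-D1 -0.091. Without clusters filled by 1 library: Rspo3 0.12. Without keratinocyte- and Schwann-led clusters: H2-K1 0.027. Without cells with immune UMIs: Bst2 0.090 against Cxcl5/Ptx3-high. Leaving out an age pair gave ranges across 0 for Saa3 (-1.03 to 2.09), Ftl1 (-0.067 to 0.38), B2m (-0.40 to 0.047), H2-D1 (-0.035 to 0.18), H2-K1 (-0.12 to 0.015) and Gsn (-0.020 to 0.77), and, against Cxcl5/Ptx3-high, for Isg15 (-0.47 to 0.012) and Bst2 (-0.26 to 0.086). The cause was not tested. The age term pairs the 2 libraries of an age, and the 29 calls without it are those of the unpaired fit. Depth limits genes of a few UMIs per library, such as Eln, Mmp9 and Ccl20.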
